A study of Mus musculus with 4 samples.

Results

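S100 proteins are small calcium-binding proteins with paired EF-hands, and 5 of their genes (S100a1, S100a4, S100a6, S100a10 and S100a11) were followed here in mouse lung macrophages, out of 32285 genes counted. The members were chosen by name, with earlier results of the same libraries known, so their levels and folds are a description and carry no test. Lung macrophages were read by droplet-based sequencing of single-cell RNA from female wildtype FVB and MMTV-HER2 mice, with 1 library for each genotype at 16 weeks (early) and at 32 weeks (late), 4 in all, where the late stage was defined by palpable tumours. In MMTV-HER2 mice the HER2 oncogene is driven by the mouse mammary tumour virus promoter, active mainly in mammary epithelium. The labels do not state how many mice stand behind each library, and no difference between libraries has a replicate check. Intervals below are 95% intervals that cover counting error only. Those of levels and folds leave out differences between cells, which are wide where a few cells hold many UMIs, as for S100a4 and S100a6.

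Most S100 proteins act as dimers that open a binding surface when calcium is bound and then attach to a partner protein. S100a10 is the exception, since it is held in the open form without calcium and sits in a complex with annexin A2 (Anxa2) at the plasma membrane, where it helps to activate plasminogen. S100a11 pairs with annexin A1 (Anxa1), S100a4 with the heavy chain of non-muscle myosin (Myh9), S100a6 with the ubiquitin ligase adaptor Cacybp, and S100a1 with the calcium pump Atp2a2, best known from muscle. In macrophages S100a4 and S100a6 are commonly found in cells that have come from blood monocytes, and both genes are widely used to follow motile cells.

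All 5 genes lie on chromosome 3 within 3.054 Mb (GRCm38, GENCODE release M21), in a region known as the epidermal differentiation cluster. S100a1 lies at 90511034 to 90514392 on the minus strand, and the other members are on the plus strand. S100a4 lies at 90603771 to 90606045 and S100a6 at 90612882 to 90624181, 6.84 kb apart. S100a11 lies at 93520488 to 93526287 and S100a10 at 93555080 to 93564643, 28.79 kb apart. These 2 neighbouring pairs also had the highest correlations over single AM cells among the 10 pairs of members. S100a4 overlaps the exons of a read-through gene, Gm42674, on the same strand, and S100a11 has 2 processed pseudogenes, Gm12854 and Gm7665, whose transcripts match its last bases at 98.1 and 97.5% over 160 bases. None of these 3 was counted in the files, and no near-identical copy was found for the other 3 members.

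The start regions are shown for the pair that was found in few alveolar macrophages (S100a4 and S100a6) and for S100a11, which was found in most of them. Each is the 250 bases before the RefSeq start, on build GRCm38.p6, and capitals mark matches, on either strand, to any of 5 core promoter and factor motifs spelled out after them. The S100a4 region is chr3:90603520-90603769 (plus strand), the S100a6 region chr3:90612644-90612893 (plus strand) and the S100a11 region chr3:93520246-93520495 (plus strand).
S100a4: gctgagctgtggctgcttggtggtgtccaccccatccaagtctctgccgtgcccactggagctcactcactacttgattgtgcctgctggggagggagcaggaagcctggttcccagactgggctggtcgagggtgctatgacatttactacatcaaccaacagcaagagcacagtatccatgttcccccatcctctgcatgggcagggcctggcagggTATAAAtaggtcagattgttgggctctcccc
S100a6: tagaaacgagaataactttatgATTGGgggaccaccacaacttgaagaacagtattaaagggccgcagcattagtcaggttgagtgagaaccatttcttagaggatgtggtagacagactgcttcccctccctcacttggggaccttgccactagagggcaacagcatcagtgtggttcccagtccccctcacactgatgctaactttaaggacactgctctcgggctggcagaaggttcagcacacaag
S100a11: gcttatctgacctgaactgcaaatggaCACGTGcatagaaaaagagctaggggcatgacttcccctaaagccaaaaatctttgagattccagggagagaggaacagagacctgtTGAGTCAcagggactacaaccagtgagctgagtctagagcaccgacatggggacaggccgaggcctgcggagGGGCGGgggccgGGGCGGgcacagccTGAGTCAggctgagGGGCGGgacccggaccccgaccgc
The S100a4 region held the core promoter motif TATAAA between 25 and 31 bases before the start. It shared no match with the S100a6 region, where the only match was the motif CCAAT, reversed, between 223 and 228 bases before the start. In the S100a11 region there were 3 matches to GGGCGG, which is the GC box bound by Sp family factors. The same region held 2 matches to TGANTCA, which is the site of the AP-1 factors, and 1 to the E-box CACGTG. No match overlapped another. The S100a1 region held none of these 5 motifs, and S100a10 is named only. Among 32851 promoter windows of the same table and length, 12.4% held the first of these motifs, 33.9% the CCAAT motif, 32.7% the GC box, 6.75% the AP-1 site and 6.02% the E-box. A match describes the letters of the window and was not tied to any measurement.

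Cells were barcodes with at least 1000 UMIs (unique molecular identifiers, each counting 1 captured RNA molecule), 500 or more genes and no more than 10% of UMIs from mitochondria. They numbered 5449 and 5126 in the early wildtype and HER2 libraries and 5129 and 6554 in the late ones, and every list of 4 values below keeps this order. Alveolar macrophages (AM), the resident cells of the airspace, were taken as cells with at least 0.4% of UMIs in 6 markers (Chil3, Ear1, Ear2, Fabp1, Lpl and Plet1), above their C1q sum. Interstitial macrophages (IM), the macrophages of the tissue between the airspaces, were cells with 5 or more UMIs of C1qa, C1qb and C1qc, above the AM sum. This gave 4833, 4413, 4245 and 5702 AM cells, 330, 455, 633 and 661 IM cells, and 286, 258, 251 and 191 other cells. Median depth was 3728 to 4752 UMIs per AM cell and 3219 to 6440 per IM cell. The IM class of wildtype early stood apart, since 116 of its 330 cells also passed the T cell marker rule, against 14 to 21 cells in the other libraries. Markers of any other cell type were found in 38.2% of those cells and in 6.20 to 8.85% elsewhere. In the AM class 32 of the 4833 wildtype early cells passed the T cell marker rule, against 1, 3 and 3 cells in the other libraries. Markers of any other cell type were found in 1.68, 1.07, 2.85 and 1.21% of AM cells. The libraries shared between 1 and 13 cell barcodes per pair. Free RNA, read from barcodes of 10 to 100 UMIs, accounted for at most 2.47 to 8.23% of AM UMIs, the most in HER2 late.

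S100a6 was the member with the widest differences among the AM libraries. Its level, in CPM (the gene's UMIs scaled to all UMIs of the class), was 118 (113 to 122) and 53.4 (50.1 to 56.8) in the early wildtype and HER2 libraries and 56.1 (53.0 to 59.4) and 40.3 (38.0 to 42.8) in the late ones. Wildtype early was thus above the other 3 libraries, the interval of HER2 late lay below all others, and within each stage the HER2 library was the lower one. HER2 early was 2.21-fold below wildtype early (log2 fold -1.14, interval -1.25 to -1.04), and HER2 late 1.39-fold below wildtype late (-0.48, -0.60 to -0.36). Late over early, the S100a6 log2 fold was -1.07 in wildtype and -0.40 in HER2. These 4 comparisons share their libraries, so the wildtype early library enters both of the larger ones.

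S100a4 was found at much lower counts in AM cells, 610, 258, 277 and 507 UMIs in all. Its level was 26.7 CPM (24.6 to 28.9), 14.2 CPM (12.5 to 16.0), 12.8 CPM (11.4 to 14.5) and 18.4 CPM (16.8 to 20.1). The early libraries therefore differed in the same direction as for S100a6, and the late ones in the opposite direction. HER2 early was 1.89-fold below wildtype early (log2 fold -0.91, -1.13 to -0.70), whereas HER2 late was 1.43-fold above wildtype late (0.52, 0.30 to 0.73). That late difference did not hold among AM cells without any C1q UMI, where the log2 fold was -0.15, nor with every cell weighing the same (-0.092) or once cells with at least 3 UMIs of cell cycle genes were left out (-0.25). In HER2 late the 3 richest cells held 23.1% of all S100a4 UMIs of the class, against 10.2 to 14.4% in the other libraries, and 12.9% of AM cells there had a C1q UMI, against 6.97 to 8.17%.

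S100a10 and S100a11, by contrast, were lowest in wildtype late. S100a10, the annexin A2 partner, measured 1186 CPM (1172 to 1200), 1101 CPM (1085 to 1116), 665 CPM (654 to 676) and 959 CPM (948 to 971). S100a11, the annexin A1 partner, measured 1265 CPM (1250 to 1279), 1289 CPM (1273 to 1306), 800 CPM (789 to 812) and 1078 CPM (1065 to 1090). For both genes the early libraries lay close together and wildtype late was below the other 3. The early log2 folds of HER2 over wildtype were -0.11 (-0.13 to -0.08) for S100a10 and 0.03 (0.00 to 0.05) for S100a11. At the late stage HER2 was 1.44-fold above wildtype for S100a10 (log2 fold 0.53, 0.50 to 0.56) and 1.35-fold above it for S100a11 (0.43, 0.40 to 0.46). Late over early, the log2 folds were -0.83 and -0.66 in wildtype and -0.20 and -0.26 in HER2.

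S100a1 was the steadiest member in AM cells. It measured 317 CPM (310 to 324), 339 CPM (331 to 348), 377 CPM (369 to 385) and 372 CPM (365 to 380). The log2 folds of HER2 over wildtype were 0.10 (0.05 to 0.15) early and -0.02 (-0.06 to 0.02) late, and those of late over early 0.25 in wildtype and 0.13 in HER2. The highest and the lowest of these levels differed by 1.19-fold.

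**Figure D1:**
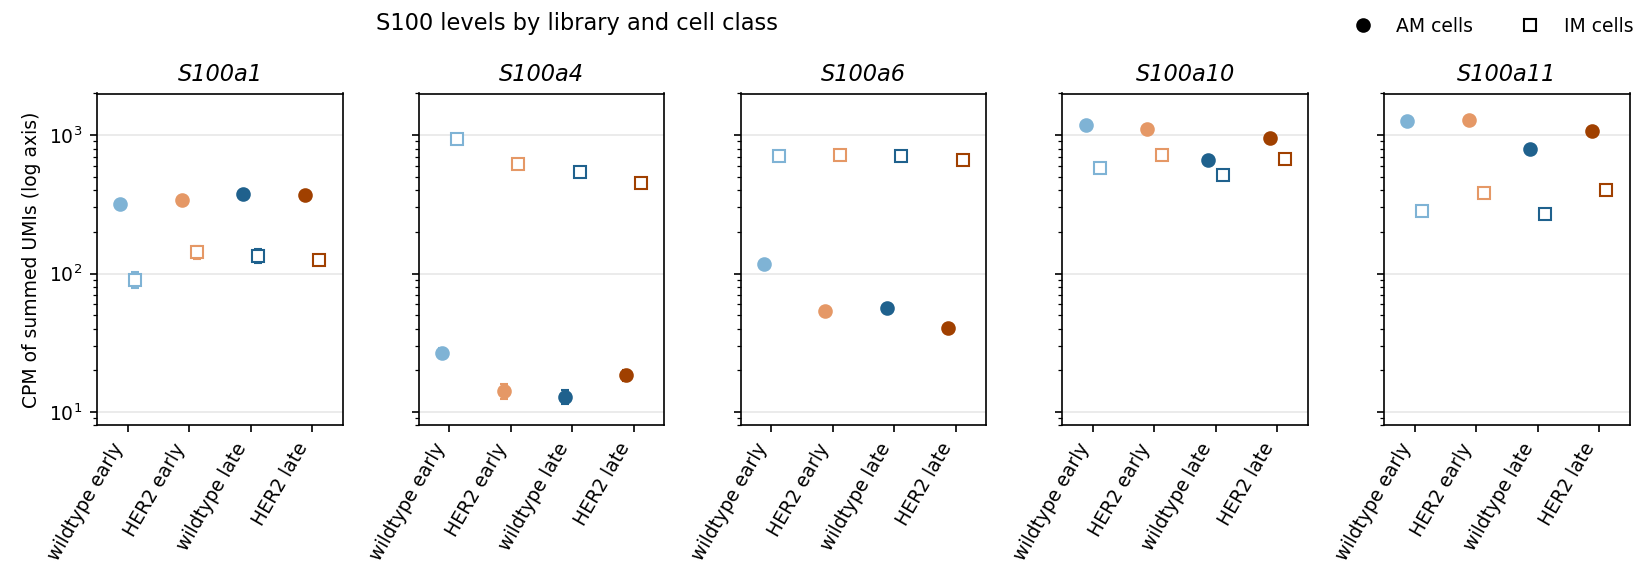
Level of each S100 gene in CPM of summed UMIs (log axis) in the 4 libraries, with AM cells as filled circles, IM cells as open squares and bars for the 95% counting interval. S100a6 in AM cells is highest in wildtype early at 118 CPM, S100a10 and S100a11 are lowest in wildtype late at 665 and 800 CPM, and S100a4 in IM cells runs from 932 down to 449 CPM.

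The wildtype late library differed from the others in a way that followed transcript length, and the members have short transcripts, with longest forms of 685 and 511 bases for S100a10 and S100a11. Among AM genes with transcripts under 1000 bases the median log2 fold of HER2 late over wildtype late was 0.23, and 35.3% of them were past a rise of 0.32. Genes over 3000 bases had a median of -0.26, with 1.47% past it. The same split appeared in wildtype late over early (-0.31 against 0.20) and not in the early genotype comparison (-0.02 and -0.02) or in HER2 late over early (-0.03 and -0.03). In both comparisons with wildtype late the folds of S100a10, S100a11 and S100a4 (498 bases, 0.52 and -1.05) lay beyond the median of the short genes in the same direction, and the part of length in them was not tested. In HER2 late over wildtype late S100a6 (783 bases) lay below the median of the short genes, and S100a1 (677 bases) lay below it as well. In wildtype late over early S100a6 (-1.07) lay beyond that median in the same direction, and S100a1 (0.25) lay above it. Mitochondrial UMIs were 5.38, 5.14, 5.61 and 4.80% of the AM total.

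Against all genes, the median log2 fold over AM genes with at least 50 CPM was -0.17 for HER2 late over wildtype late and 0.13 for wildtype late over early. Relative to that median the late HER2 folds were 0.16 for S100a1, 0.69 for S100a4, -0.30 for S100a6, 0.70 for S100a10 and 0.60 for S100a11. Relative to it the wildtype late over early values were 0.12 for S100a1, -1.18 for S100a4, -1.20 for S100a6, -0.96 for S100a10 and -0.79 for S100a11. The other comparisons in AM cells had a median of -0.02.

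A log2 fold of 0.32 in either direction was used to count members in AM cells. In HER2 over wildtype early, 0 of the 5 members were past it upward and 2 downward (S100a4 and S100a6), where 0.274% of the 2551 genes with at least 50 CPM were higher and 0.588% lower. In HER2 over wildtype late, 3 members were higher (S100a4, S100a10 and S100a11) and 1 lower (S100a6), beside 7.38% of 2671 genes higher and 24.5% lower. In wildtype late over early, 0 were higher and 4 lower, all except S100a1, beside 23.1% of 2712 genes higher and 11.3% lower. In HER2 late over early, S100a4 was higher and S100a6 lower, beside 1.23% of 2513 genes higher and 0.836% lower. The members were named with these contrasts in view, and nothing is read from their counts. S100a4 was under 50 CPM in AM cells throughout and S100a6 was under it in both comparisons with HER2 late, so 3 or 4 of the 5 members were among the genes behind these shares.

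**Figure D2:**
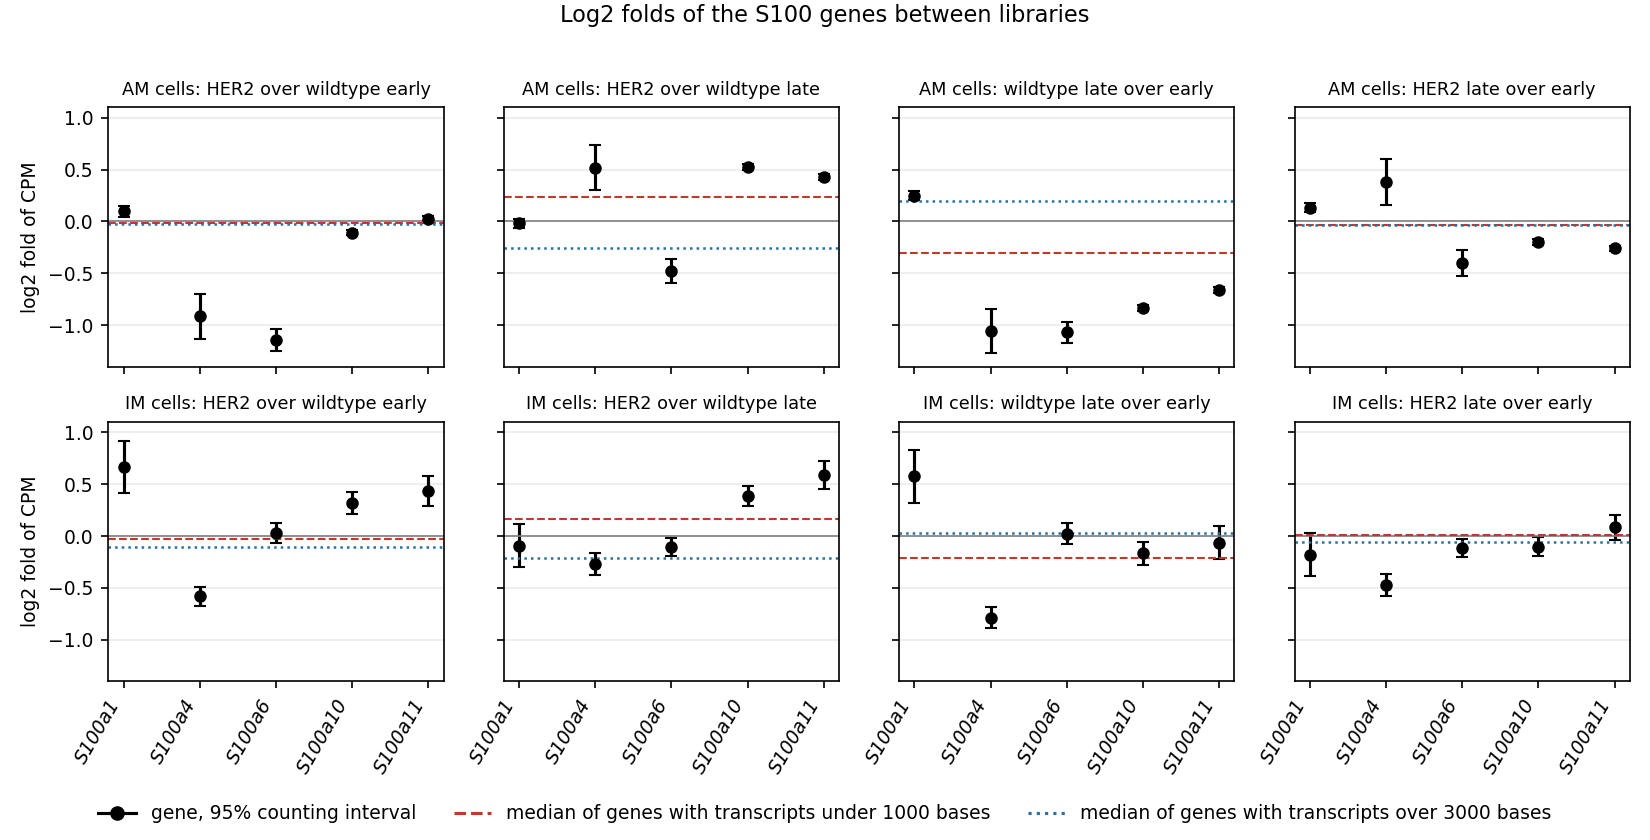
Log2 fold of CPM for each S100 gene in 4 comparisons, with AM cells in the upper row and IM cells in the lower, bars for 95% counting intervals, a dashed line for the median of genes with transcripts under 1000 bases and a dotted line for those over 3000 bases. In AM cells the lines separate only where wildtype late is compared (0.23 and -0.26, -0.31 and 0.20), while the early S100a4 and S100a6 values of -0.91 and -1.14 lie far below lines at -0.02.

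The authors' deposited table of average AM signal, scaled to 10000 over 15906 genes, gave S100a6 averages of 1.13, 0.485, 0.510 and 0.361. For S100a4 the authors' deposited table gave 0.273, 0.126, 0.109 and 0.145. The log2 ratios from the authors' deposited table were -1.22 and -0.50 (early and late) for S100a6, -1.12 and 0.42 for S100a4, -0.08 and 0.50 for S100a10, 0.05 and 0.39 for S100a11, and 0.10 and -0.06 for S100a1. All 10 had the sign of the folds from summed UMIs, although the interval of the late S100a1 fold included no difference. The averages come from the same libraries, so a shared sign is no independent check. The labels do not say how the authors picked the cells behind these averages.

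Within a library the members were spread over AM cells in 2 distinct ways. S100a10 had a UMI in 92.6, 89.7, 87.2 and 89.8% of AM cells and S100a11 in 93.0, 91.8, 89.5 and 90.8%. Cells were then thinned to 2000 UMIs to make depth equal, which left out the shallower ones (357, 490, 171 and 340 AM cells and 7, 22, 101 and 31 IM cells). The shares after thinning were 84.3, 82.1, 68.0 and 78.9% for S100a10 and 85.6, 86.2, 73.5 and 80.9% for S100a11, and wildtype late remained lowest. S100a1 had a UMI in 62.2 to 70.9% of AM cells, or in 42.6 to 46.2% after thinning, with the 4 libraries close together.

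S100a6 had a UMI in only 13.8, 5.85, 7.18 and 4.72% of AM cells, or in 9.56% (8.72 to 10.5), 4.16% (3.55 to 4.83), 5.03% (4.38 to 5.75) and 2.82% (2.39 to 3.29) after thinning. Wildtype early was again the highest and HER2 late the lowest. S100a4 was seen in 5.90, 2.88, 2.90 and 2.74% of AM cells, or in 3.66% (3.13 to 4.26), 1.91% (1.51 to 2.39), 1.35% (1.02 to 1.75) and 1.53% (1.22 to 1.89) after thinning, so that by share HER2 late was not above wildtype late beyond counting error. B-like cells (13, 32, 28 and 13 cells, median 1480 to 2632 UMIs) had a UMI of S100a4 in 0, 6.25, 0 and 0% and of S100a6 in 7.69, 12.5, 0 and 0%, and a count of 0 still allows 10.7% of 28 cells. Endothelial-like cells (47, 88, 78 and 66 cells, median 4001 to 6885 UMIs) had S100a4 in 4.26, 4.55, 6.41 and 4.55% and S100a6 in 19.1, 22.7, 17.9 and 21.2%. Both types hold too few cells to set a firm background, and a single UMI of either gene in an AM cell is not read as expression.

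The UMIs of S100a6 were, however, gathered in a few AM cells. Cells with 5 or more S100a6 UMIs numbered 178 of 4833, 62 of 4413, 88 of 4245 and 68 of 5702, and they held 67.2, 66.4, 66.4 and 72.0% of all S100a6 UMIs of the class. No B-like cell held 5 or more, since those libraries that had any S100a6 UMI there had 1 or 4 in all. With so few and shallow B-like cells this sets no background. Endothelial-like cells held 47, 78, 44 and 99 S100a6 UMIs in 19.1, 22.7, 17.9 and 21.2% of their cells. How many of those held 5 or more was not counted. From free RNA alone at most 6.84, 9.91, 3.51 and 24.4% of the S100a6 level and 18.6, 24.4, 7.61 and 34.6% of the S100a4 level in AM cells could have come. For S100a10 and S100a11 that share was at most 6.33%.

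**Figure D3:**
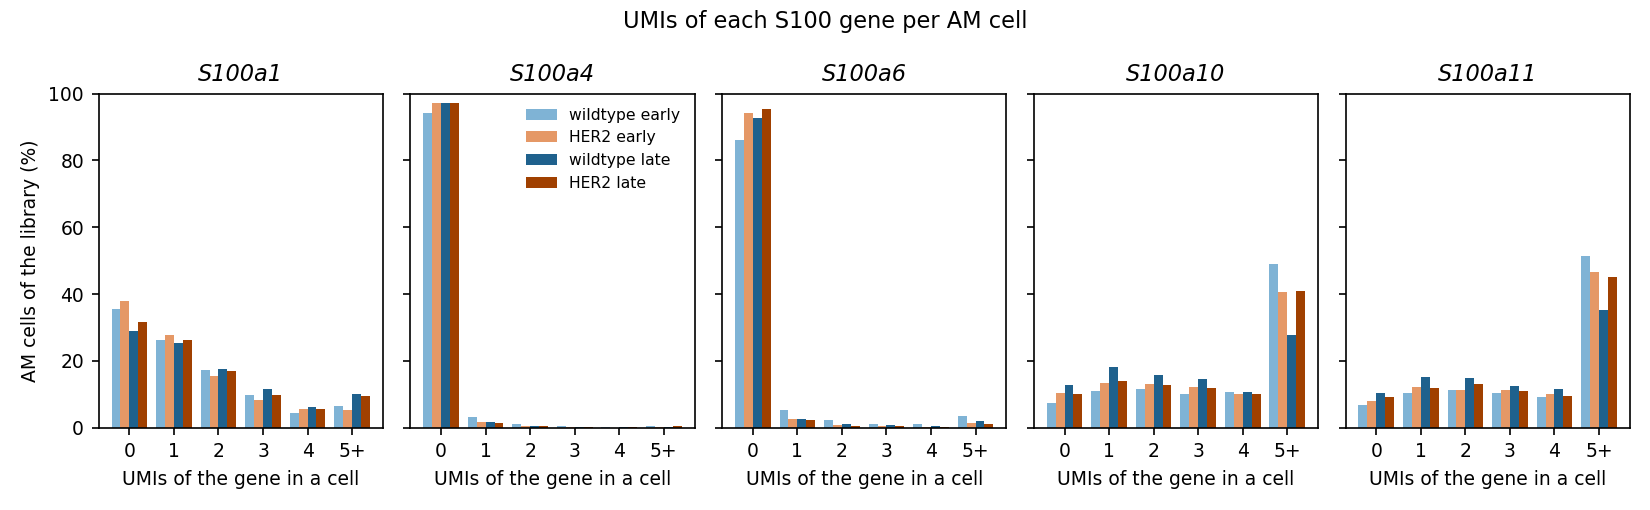
Percent of AM cells of each library by the number of UMIs of the gene in the cell (5+ for 5 or more), with the 4 libraries as coloured bars. S100a10 and S100a11 are found in most cells, S100a1 in a middle range, while even in wildtype early, where both genes were found in the largest share of cells, 86.2% hold no UMI of S100a6 and 94.1% none of S100a4.

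The AM cells with 5 or more S100a6 UMIs were a distinct set by other genes too. S100a4 stood at 283, 445, 263 and 631 CPM in them, against 6.4, 3.3, 2.1 and 2.7 CPM in AM cells without an S100a6 UMI. Fn1, which encodes the matrix protein fibronectin, stood at 420, 558, 154 and 359 CPM against 86.7, 32.4, 4.0 and 17.5 CPM. S100a10 was also higher there, at 1730, 1727, 1009 and 1370 CPM against 1137, 1071, 650 and 948 CPM, whereas S100a1 was higher in the early libraries (356 and 428 against 315 and 336 CPM) and lower in the late ones (305 and 330 against 383 and 375 CPM). Mmp12, a macrophage elastase named here after its values were seen, stood at 148, 198, 788 and 368 CPM against 38.8, 29.3, 107 and 51.6 CPM. These cells kept the AM markers at 1.38, 1.28, 1.65 and 1.35% of UMIs, against 1.65, 1.77, 1.95 and 1.86% in cells without S100a6. MHC class II genes made up 0.184, 0.770, 0.515 and 0.884% of their UMIs, against 0.0956, 0.0812, 0.132 and 0.123%. C1q genes made up 0.0084, 0.0593, 0.0338 and 0.154%, against 0.0035, 0.0045, 0.0051 and 0.0091%. Classical monocyte markers stood at 4.67, 90.2, 42.9 and 63.8 CPM, against 2.39, 2.83, 4.26 and 2.91 CPM, and dendritic cell markers at 3.74, 46.5, 16.1 and 58.4 CPM, against 2.18, 2.24, 2.18 and 3.64 CPM. Markers of both types were thus higher in these cells, least so in wildtype early, where they rested on 5 and 4 UMIs. Cells of that library with 1 to 4 S100a6 UMIs had 19.0 and 4.76 CPM of these markers, above the cells with 5 or more. Larger marker lists went both ways within that library. Non-classical monocyte, T cell and neutrophil markers stood at 282, 282 and 47.7 CPM in its cells with 5 or more S100a6 UMIs. In its cells with 1 to 4 they stood at 244, 326 and 49.5 CPM. Epithelial markers stood at 364 CPM in the cells with 5 or more. Further marker lists and the other libraries are not compared for these types here. The median depth of the cells with 5 or more S100a6 UMIs was 5519, 4808, 5801 and 7450 UMIs. This was above the 3670 to 4697 UMIs of cells without S100a6. The part of doublets or of other cell types in the cells with 5 or more was not tested.

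S100a4 and S100a6 were found in the same AM cells far more often than their shares alone. After thinning to 2000 UMIs, S100a6 was present in 57.9% of 164, 58.7% of 75, 63.6% of 55 and 46.3% of 82 S100a4-bearing cells, where all AM cells had it in 2.82 to 9.56%. Pearson's r between S100a4 and S100a6 over AM cells was 0.48 to 0.58 in the 4 libraries, and 0.47 to 0.54 among cells without a C1q UMI. S100a10 and S100a11 had r of 0.25 to 0.34 over AM cells, and S100a1 had 0.12 to 0.20 with either of them. The remaining 6 pairs lay between -0.03 and 0.13. These r values share the cells' depth and are descriptions.

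Splitting AM cells by MHC class II, the proteins that present peptides to T cells, set S100a4 and S100a6 apart from the other members. Cells with at least 0.3% of UMIs in 6 such genes numbered 405, 289, 601 and 561. S100a6 stood at 287, 230, 157 and 163 CPM in them and at 101, 40.2, 37.9 and 24.4 CPM in the rest, 2.84, 5.74, 4.15 and 6.68-fold higher. S100a4 stood at 76.2, 67.9, 48.3 and 71.0 CPM against 21.8, 10.1, 6.46 and 11.6 CPM. Both genes were thus higher in the cells rich in MHC class II in every library. S100a10 and S100a11 differed little, with log2 folds between -0.10 and 0.08, and S100a1 was lower, between -0.32 and -0.21.

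Since C1q marks IM cells, the split was repeated on AM cells without any C1q UMI. S100a6 then stood at 278, 245, 142 and 112 CPM in 358, 243, 514 and 433 cells rich in MHC class II, against 100.4, 40.9, 38.5 and 19.98 CPM in the rest. S100a4 stood at 80.4, 62.6, 37.8 and 43.8 CPM against 21.5, 9.79, 6.21 and 6.04 CPM. The difference thus held in all 4 libraries without C1q-bearing cells. Only cells with C1q were left out here, and cells with dendritic markers were not. Dendritic-like cells among the other cells of HER2 early, wildtype late and HER2 late measured 653, 293 and 1109 CPM of S100a4. For S100a6 they measured 661, 431 and 1097 CPM. The part of such cells in the split was not tested. In these C1q-free cells as a whole S100a6 measured 115, 53.2, 52.8 and 28.5 CPM, and the HER2 late library lay further below wildtype late (log2 fold -0.89) than in all AM cells. S100a4 measured 26.5, 12.96, 10.6 and 9.54 CPM, with HER2 late lowest. In AM cells with 3 or more C1q UMIs (28, 33, 54 and 90 cells) S100a4 measured 96.2, 106, 139 and 225 CPM and S100a6 234, 238, 219 and 292 CPM.

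**Figure D4:**
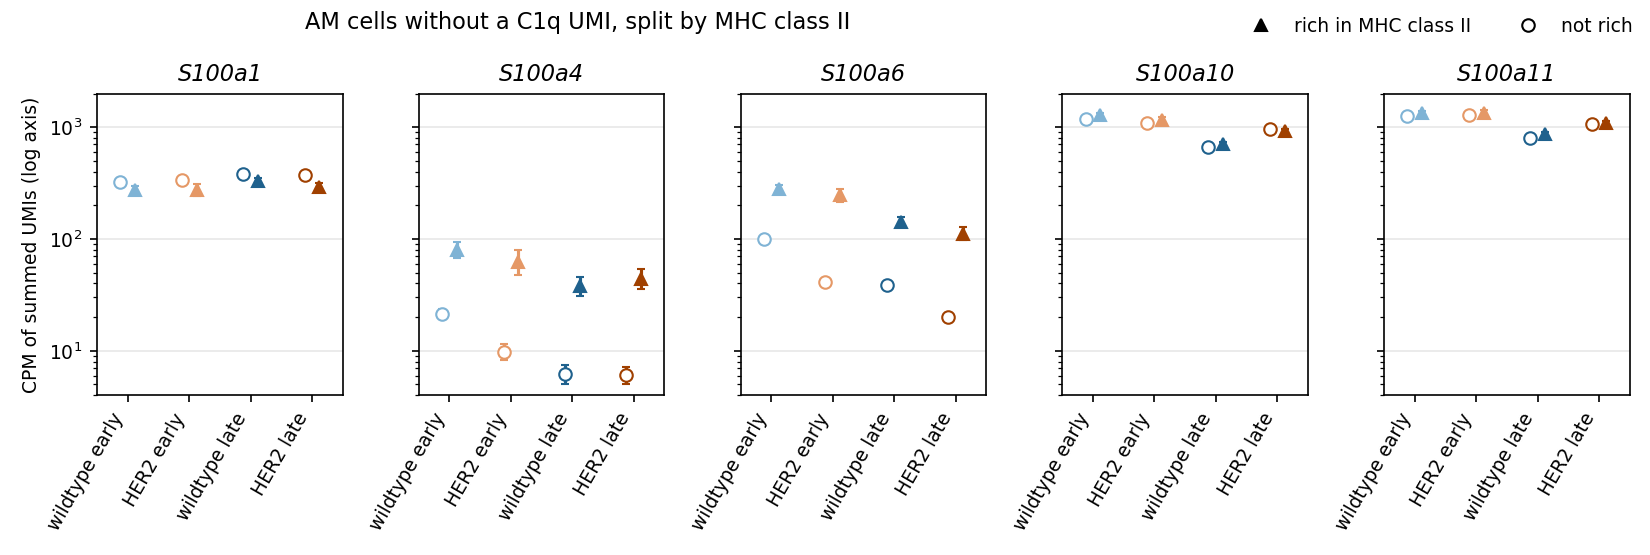
Level of each S100 gene in CPM (log axis) in AM cells without a C1q UMI, with cells rich in MHC class II as filled triangles, the rest as open circles and bars for 95% counting intervals. The triangles lie well above the circles for S100a4 and S100a6 in each library (for S100a6, 112 to 278 against 19.98 to 100.4 CPM) and near them for the other members.

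AM cells were also split by cell cycle genes. AM cells with at least 0.3% of UMIs in 20 cell cycle genes numbered 201, 141, 130 and 175. S100a1 was 1.85, 1.53, 1.44 and 1.89-fold lower in them than in the other AM cells, a larger shift than in the splits by MHC class II. S100a11 was lower by 1.27, 1.099, 1.17 and 1.24-fold, and S100a10 was higher by 1.14, 1.15, 1.24 and 1.29-fold. S100a10 and S100a11, whose library levels ran in parallel, thus went opposite ways here in all 4 libraries. S100a6 was 1.30, 1.31 and 2.14-fold lower in the first 3 libraries and 2.06-fold higher in HER2 late. Its HER2 early interval (log2 fold -0.92 to 0.09) included no difference. S100a4 was 1.16-fold higher, 1.22-fold lower, 1.38-fold higher and 3.93-fold higher in the same order, from 10 to 78 UMIs in the cells rich in cell cycle genes. The interval of the S100a4 fold included no difference in all libraries but HER2 late. The cell cycle list differed between the AM libraries too. Early, 12 of its 18 genes with at least 10 CPM were lower in HER2 (median log2 fold -0.39), beside 1.36% of all genes, and without cells holding 3 UMIs or more of these genes the early folds were -1.18 for S100a4 and -1.19 for S100a6. Late, 2 of 17 were higher and 2 lower (median 0.05), beside 4.73% of all genes higher and 28.5% lower (median -0.20). In wildtype late over early 10 of 18 were lower (median -0.44), beside 7.73% of all genes.

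In IM cells S100a4 and S100a6 were far above their AM levels, and S100a1, S100a10 and S100a11 were below theirs, in each library. S100a4 measured 932 CPM (894 to 971), 622 CPM (590 to 655), 539 CPM (510 to 571) and 449 CPM (428 to 470). S100a6 measured 701 CPM (669 to 735), 717 CPM (683 to 752), 713 CPM (678 to 748) and 662 CPM (637 to 688). Wildtype early was highest for S100a4, while the S100a6 intervals of all 4 libraries overlapped. After thinning, S100a6 was found in 40.6, 44.8, 44.5 and 40.8% of IM cells and S100a4 in 40.6, 35.3, 31.4 and 30.3%, and 77.1 to 85.0% of IM cells with S100a4 had S100a6 as well.

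S100a10 measured 579, 723, 516 and 673 CPM in IM cells, S100a11 282, 381, 270 and 404 CPM, and S100a1 89.5, 142, 133 and 125 CPM. For S100a10 and S100a11 both HER2 libraries were above both wildtype libraries. The log2 folds of HER2 over wildtype were 0.32 (0.22 to 0.42) early and 0.38 (0.28 to 0.49) late for S100a10, and 0.43 (0.29 to 0.58) and 0.59 (0.45 to 0.72) for S100a11. Among IM cells without markers of another type S100a10 measured 598, 717, 518 and 662 CPM and S100a11 303, 345, 264 and 397 CPM, and the early folds were smaller, at 0.26 and 0.19. Short transcripts had a median of -0.02 early and 0.17 late in the same comparisons. S100a1 was 1.59-fold higher in HER2 early (log2 fold 0.67, 0.42 to 0.92) and differed by -0.09 late, and without the cells with other markers its early fold was 0.53, under a fold of 1.5.

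S100a4 differed between the early IM libraries by a log2 fold of -0.58 (-0.68 to -0.49) and between the late ones by -0.27 (-0.37 to -0.16), while S100a6 differed by 0.03 and -0.11. The early S100a4 value depended on which cells were taken. Among IM cells without markers of another type (204, 419, 577 and 620 cells) it was -0.95, with levels of 1219, 629, 550 and 425 CPM, since the T-marked IM cells of wildtype early were lower in S100a4, at 476 CPM. Once cells with at least 3 UMIs of cell cycle genes were left out, the early S100a4 fold was 0.03 instead, and with every cell weighing the same it was -0.29. The cell cycle list itself was lower in that comparison, with 17 of 18 genes past a log2 fold of 0.32 downward and a median of -1.41, beside 27.4% of all genes with at least 10 CPM. In wildtype late over early all 19 measured cell cycle genes were lower (median -1.60), beside 27.9% of all genes, and the S100a4 fold there was -0.79 with the cycling cells and -0.29 without them. In the wildtype early class the 3 richest cells held 19.0% of the S100a4 UMIs, against 6.69 to 11.4% in the other libraries.

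A fold of 1.5 was used to count members in IM cells, where the totals are smaller, and all 5 passed 50 CPM. In HER2 over wildtype early S100a1 was higher and 0 members were lower, with S100a4 just short of the limit at 1.498-fold, beside 2.38% of 2903 genes higher and 6.23% lower. In HER2 over wildtype late S100a11 was higher, just past the limit at 1.5002-fold, and 0 were lower, beside 2.1% of 2814 genes higher and 5.79% lower. In wildtype late over early 0 were higher and S100a4 was lower (1.73-fold, log2 -0.79), beside 9.21% of 3018 genes higher and 10.1% lower. In HER2 late over early 0 members passed in either direction, beside 0.769% of 2732 genes higher and 2.38% lower.

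Among the other kept cells, named by marker lists as a guide, S100a4 and S100a6 varied between cell types and between libraries of one type. T-like cells (138, 45, 39 and 16 cells) measured 344, 803, 663 and 939 CPM of S100a4 and 273, 681, 652 and 2003 CPM of S100a6. Dendritic-like cells, found in 3 libraries (14, 10 and 16 cells), measured 653, 293 and 1109 CPM of S100a4. B-like cells had no S100a4 UMI in 3 of the 4 libraries and S100a10 at 886, 1042, 517 and 374 CPM. Endothelial-like cells measured 131, 110, 109 and 183 CPM of S100a6. The 16 epithelial-like cells of wildtype late measured 2461 CPM of S100a6 and 783 CPM of S100a1, with 0 UMIs of S100a4. The 13 non-classical monocyte-like cells of that library measured 1619 CPM of S100a4 and 108 CPM of S100a10. Most of these classes hold few cells, so counting error is wide.

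The named protein partners of the members were measured in the same AM cells. Anxa2, the partner of S100a10, measured 1471, 1460, 1471 and 1412 CPM in AM cells, so the late S100a10 difference had no counterpart in it. Anxa1, the partner of S100a11, measured 453, 434, 376 and 368 CPM, close within each stage. Myh9, the myosin bound by S100a4, measured 505, 525, 693 and 526 CPM and was highest in wildtype late, where its log2 fold of HER2 over wildtype was -0.40. Cacybp, bound by S100a6, measured 158, 153, 95.1 and 125 CPM. Atp2a2, the pump bound by S100a1, measured 72.6, 70.9, 71.4 and 68.3 CPM. The longest transcripts of Anxa2, Anxa1 and Myh9 are 2280, 1674 and 7433 bases, unlike those of the short S100 genes.

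Of the 12 annexin genes 7 had at least 50 CPM in AM cells, and 0 of them were past a log2 fold of 0.32 in any of the 4 comparisons. Their median log2 fold was -0.01 early and -0.06 late for HER2 over wildtype, beside -0.02 and -0.17 over all genes. Of 18 listed S100 partners and receptors 12 were measured at that level, and 0 passed early, 1 was higher (Cacybp, log2 fold 0.40) and 2 lower (Myh9, and the endotoxin receptor Tlr4 at -0.45) late, 3 were higher and 2 lower in wildtype late over early, and 0 passed in HER2 late over early. Of 17 other EF-hand genes 12 were measured, with 0 past the fold early, 3 lower late (Calu at -0.32, Capns1 at -0.35 and Lcp1 at -0.40), and 4 higher and 1 lower in wildtype late over early. Over all genes 7.38% were higher and 24.5% lower late, and 23.1% higher and 11.3% lower in wildtype late over early, and counts of this size among 12 genes do not set either list apart from that. These lists and their genes were chosen with earlier results known.

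Of the 20 cytoskeleton and migration genes 1 was lower early (Fn1), and late, where Fn1 was below 50 CPM, 2 of 19 were higher (Tmsb10 at 0.76 and Tmsb4x at 0.38) and 2 lower (Flna at -0.52 and Msn at -0.36), beside 7.38% of all genes higher and 24.5% lower. Fn1 measured 116, 47.4, 12.5 and 26.7 CPM and had the lowest early fold of the list (log2 fold -1.29), in the same direction as S100a4 and S100a6. Its late fold was 1.09, opposite to S100a6. Tmsb10, a short gene (690 bases) for an actin-binding peptide, measured 1258, 1301, 587 and 992 CPM, a profile like those of S100a10 and S100a11 with wildtype late lowest. Vim, the intermediate filament of motile cells, measured 3399, 3302, 2666 and 2780 CPM and differed by -0.04 early and 0.06 late. Of the 5 measured MHC class II genes 0 passed early, and 1 was higher and 1 lower in HER2 over wildtype late. In wildtype late over early 3 were higher and 1 lower, beside 23.1 and 11.3% of all genes. In HER2 late over early 3 were higher, beside 1.23%. Among them Cd74 measured 511, 446, 896 and 819 CPM. Late over early, Cd74 rose in both genotypes, S100a6 fell in both, and S100a4 fell in wildtype and rose in HER2. Early, Cd74, S100a4 and S100a6 were all lower in HER2. Late, Cd74 and S100a6 were lower in HER2 and S100a4 was higher. Both S100a4 rises depended on the settings. Across other settings its log2 fold ran from -0.44 to 0.40 for HER2 late over early. For HER2 late over wildtype late it ran from -0.25 to 0.69.

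Over the 12 values of AM, IM and other cells in 4 libraries, the genes closest to each member among 5046 were found by the root mean square distance of centred log2 CPM. S100a4 was closest to H2-Aa (distance 0.55), H2-Ab1 (0.59) and Cd74 (0.66), and S100a6 to Cd52 (0.42), Cst3 (0.48) and Zfp36l1 (0.51). Both members differed far more between AM and IM cells than between libraries of either class. That class difference therefore weighs most in these distances, which were larger than those of the other members. S100a10 was closest to Tomm6 (0.20), S100a11 to Dnajb9 (0.21) and S100a1 to Dstn (0.18). Over single AM cells, among 4193 genes, the highest r of S100a10 was with Crip1 (0.33 to 0.45), Tmsb4x (0.26 to 0.42), S100a11 (0.25 to 0.34) and Vim (0.25 to 0.34). S100a11 had its highest lowest value with Serf2 (0.27 to 0.31) and S100a1 with the ferritin genes Ftl1 (0.28 to 0.33) and Fth1 (0.27 to 0.32). Only genes with a UMI in at least 10% of AM cells of every library were ranked, which left out S100a4 and S100a6 themselves. Among the ranked genes Cd74, H2-Ab1 and H2-Aa led for S100a4 and S100a6, at 0.10 to 0.21, which is weak in such sparse counts. The r of S100a4 with S100a6 was higher, at 0.48 to 0.58, and other sparse genes were not compared.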

How the data were processed

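Raw UMI counts for all barcodes were deposited by the authors. The submitters' processing notes name Cell Ranger 5.0.1 and the mm10 build, whereas Cell Ranger 4 stands in the matrices, per the file headers. A table of average AM signal per stage was also deposited by the authors. Groups were taken from the sample titles. Library totals were 28786682 to 39228655 UMIs. Summed counts per library and class were turned into CPM within that class, with exact Poisson intervals. Folds have exact conditional binomial intervals and shares Clopper-Pearson intervals. Thinned shares leave out cells under 2000 UMIs. No test was run, since cells are not replicates, with 1 library per group. A gene was counted in the background share from 50 CPM upward, averaged over the 2 libraries compared. No doublet caller was run, so doublets were left in. Other cells were called X-like with at least 3 markers of a type detected and over 2 times the marker UMIs of any other type. Genes named are the members, listed genes with at least 50 CPM, and, for each member, the 3 genes with the nearest profile and the 5 with the highest lowest r over AM cells, of which the leading ones are given. Members and lists were chosen with earlier results of these data known. Copies were sought by BLAST 2.17 of the last 300 bases at 95% identity over at least 90 bases. Calculations used Python 3.11, numpy 2.4, scipy 1.17 and pandas 2.3, and were tested on simulated counts. The closing section gives the other settings tried, of which 3 were chosen after seeing the data (AM cells without C1q UMIs, IM cells without markers of another type, no cells over 3 times the median UMIs).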

Additional observations from a re-analysis of the deposited data

Results flagged for a closer look

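S100a4 in AM cells went down in HER2 early and up in HER2 late against wildtype, a late less early difference of 1.43 in log2 fold, and its late direction did not hold without C1q-bearing cells. S100a10 in AM cells went slightly down early and up late, a difference of 0.64. Each is 1 library against 1, and the difference between stages was not tested.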

How the results depend on the processing

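No paired analysis was possible because each group is 1 library. In AM cells 184 of 230 recomputed member folds moved by less than their counting interval, 42 moved more and 4 reversed. The log2 fold of S100a4 in HER2 late over wildtype late became -0.092 with every cell weighing the same, -0.25 without cells of at least 3 cell cycle UMIs and -0.15 in AM cells without C1q UMIs. That of HER2 late over early became -0.44 in the last of these. In IM cells 186 of 220 stayed and 34 moved. The 12 list medians stayed, and all 40 shares moved with thinning. The cause was not tested.

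With a fold of 1.5 in AM cells, HER2 late over wildtype late had 0 members higher and 0 lower, and HER2 late over early 0 and 0. Relative to the median gene 0 were lower in HER2 late over wildtype late. In HER2 late over early 0 were higher with every cell weighing the same, AM markers at 1% or more, free RNA subtracted, without the 3 richest cells, without C1q UMIs (there 2 were lower) or without cells over 3 times the median UMIs. In IM cells HER2 early over wildtype early had 0 higher without markers of another type and 2 at the smaller fold used in AM cells, and 1 lower with 2000 UMIs per cell, a C1q sum of 10, no markers of another type or that smaller fold. In HER2 late over wildtype late 0 were higher with a mitochondrial limit of 20%, 2000 UMIs, equal weights, a C1q sum of 10, free RNA subtracted, or without cycling, richest or largest cells, and 2 at the smaller fold. In wildtype late over early 1 was higher with 2000 UMIs, equal weights, free RNA subtracted, no mitochondrial genes or Gm42418, relative to the median gene, without cycling or richest cells, or at the smaller fold, and 0 were lower with equal weights or without cycling cells. In HER2 late over early 1 was lower with equal weights, without cycling cells or at the smaller fold. Depth limits S100a4 in AM cells most, with 258 to 610 UMIs per library.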

Other observations

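Other genes of the S100 family were counted in the same cells. S100a8, known as a neutrophil and monocyte protein, measured 27.1, 32.0, 44.8 and 40.9 CPM in AM cells and had a UMI in 10.5, 10.4, 16.6 and 14.7% of them, at 1.22 to 1.38 UMIs per cell with any. S100a9, with which it forms calprotectin, had 0, 2, 3 and 10 UMIs in the same cells. S100a13, which starts 42 bases from S100a1 on the other strand, measured 340, 317, 243 and 306 CPM, with wildtype late lowest as for S100a10 and S100a11 and unlike S100a1. S100a16 measured 464, 341, 441 and 423 CPM in endothelial-like cells.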
